A study of Rattus norvegicus with 18 samples.

Results

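Expression of the insulin-like growth factor (IGF) binding proteins and of the type 1 IGF receptor was followed across 18 RNA-seq libraries of rat pXEN cells, an extraembryonic endoderm precursor type that the labels call rat XENP. The set was made of the 8 rows whose symbol was Igfbp1, Igfbp2, Igfbp3, Igfbp4, Igfbp5, Igfbp6, Igfbp7 or Igf1r, out of 28695 rows in each file. They were chosen by name, by gene family, with the counts of these same 18 libraries in view, so their levels and fold changes are a description. No p of a member is given. Whether a member passed the threshold of the fit across all genes is listed beside the share or number of genes that did. All cells were of the WKY strain, derived from blastocysts and labelled female, and they stood between passages 32 and 51. Normal cells (3 libraries, passages 37, 40 and 51) were kept in routine medium. Vacuolated cells were grown in the same routine conditions with 0.5 µM CHIR99021, an inhibitor of the kinase GSK3 that activates canonical Wnt signalling (3 libraries, passages 37, 41 and 51), or with 14% BCS, a supplement the labels do not spell out (3 libraries, passages 41, 32 and 42). A further 3 libraries came from CHIR99021-vacuolated cells that were sorted (passages 35, 38 and 49). Vesicles were grown with CHIR99021 either in serum (3 libraries, passages 32, 35 and 49) or serum-free (3 libraries, passages 32, 35 and 42). The growth protocol gives 3 µM CHIR99021 with 10 ng/ml murine LIF in N2B27 medium for vesicles, which was read as the serum-free condition, so the dose in the serum vesicles is not clear. The labels describe the samples as independent preparations without saying whether each was a separate derivation, so the p-values below measure only the spread between these samples, which may be technical.

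Depth on the analysed strand ran from 4.05 M to 12.1 M counts per library, with a median of 7.09 M, and of these 1.92 M to 6.54 M lay outside 2 dominating clone-named rows. All 10 extraembryonic endoderm markers checked, among them Gata4, Gata6, Sox17 and Dab2, were detected in every group. Their summed level was 5044 to 5463 CPM (counts per M counts of the TMM-scaled library) in normal cells, 5041 to 6043 CPM in unsorted CHIR99021-vacuolated, 6492 to 8619 CPM in BCS-vacuolated and 6514 to 8598 CPM in sorted cells, and 3077 to 4189 CPM in the vesicles. The fibroblast list summed to at most 12 CPM with Dcn at 0 in every group, and the epiblast list to at most 2.58 CPM with Sox2 at 0 in 5 of the 6 groups. The trophoblast list (6 genes) summed to 3.62 to 10.2 CPM outside the vesicles and 19.4 to 33.7 CPM in the vesicles, while the visceral endoderm list (7 genes) summed to 327 to 454 CPM in normal, 269 to 336 CPM in unsorted CHIR99021-vacuolated, 505 to 655 CPM in BCS-vacuolated and 198 to 301 CPM in sorted cells and to 52.7 to 191 CPM in the vesicles. In the visceral endoderm list Ttr was at 0 in every group but serum-free vesicles. Afp and Apoa1 were at 0 in normal and unsorted CHIR99021-vacuolated cells, Afp also in sorted and Apoa1 also in BCS-vacuolated cells. The 2 dominating rows took 37.6 to 43.6% of counts in normal cells, 44.3 to 53.4% in vacuolated cells and 51 to 61.1% in vesicles. Mitochondrially encoded genes took 3.13 to 3.38% of the other counts in normal cells, 2.88 to 4.32% in unsorted vacuolated cells of both kinds, 6.76 to 8.91% in sorted cells and 7.11 to 9.43% in vesicles. The part of these lists and shares in the values below was not tested, and in bulk RNA fewer cells of a type and less RNA per cell cannot be told apart. BCS-vacuolated replicate 2, from passage 32, stood apart from its group (r of 0.967 and 0.970 with the other libraries across genes in log2 CPM, which had 0.983 with each other), so values that rest on it are given with and without it. Normal replicate 2 had r of 0.971 and 0.973 with its group, whose other pair had 0.984, and pairs of vesicle libraries of a group had 0.937 to 0.967.

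IGF-I and IGF-II are secreted growth factors that act through the type 1 receptor, a tyrosine kinase whose signal runs through IRS adaptors to PI3K, AKT and mTOR. IGFBP1 to IGFBP6 bind both ligands with high affinity outside the cell, where they prolong ligand half-life and limit access to the receptor, and proteases that cut them free the ligand. IGFBP7 is a related secreted protein with low affinity for IGF. The extraembryonic endoderm is a secretory lineage of the early embryo, and IGF-II is a major growth factor of the conceptus.

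The results below turn on 3 members, Igfbp2, Igfbp3 and Igfbp4, which had enough counts to be followed library by library and which did not follow the same pattern. The 250 bases before their annotated starts are shown to let their promoters be compared. The sequences are the RefSeq reference (GRCr8), whereas the authors aligned to rn6 and the cells were WKY. All 8 members matched a promoter entry. Capitals mark matches to the motifs searched on both strands, which were the TCF/LEF words CTTTGAT and CTTTGTT, the hypoxia response cores ACGTG and GCGTG, the forkhead words GTAAACA and CAAAACA, and TATAAA. Igfbp2 lay at chr9:81864561-81864810 on the plus strand, Igfbp3 at chr14:86277945-86278194 on the minus strand and Igfbp4 at chr10:84491221-84491470 on the plus strand.
Igfbp2: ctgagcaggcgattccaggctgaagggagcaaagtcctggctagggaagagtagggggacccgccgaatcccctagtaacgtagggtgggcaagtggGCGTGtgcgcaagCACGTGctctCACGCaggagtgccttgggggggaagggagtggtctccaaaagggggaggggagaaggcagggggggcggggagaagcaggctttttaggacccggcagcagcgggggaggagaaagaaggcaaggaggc
Igfbp3: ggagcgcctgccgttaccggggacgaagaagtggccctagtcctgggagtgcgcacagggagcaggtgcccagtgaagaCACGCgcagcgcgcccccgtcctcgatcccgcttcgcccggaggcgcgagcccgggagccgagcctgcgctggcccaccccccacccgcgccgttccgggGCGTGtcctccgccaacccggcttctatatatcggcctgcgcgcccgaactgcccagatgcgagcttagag
Igfbp4: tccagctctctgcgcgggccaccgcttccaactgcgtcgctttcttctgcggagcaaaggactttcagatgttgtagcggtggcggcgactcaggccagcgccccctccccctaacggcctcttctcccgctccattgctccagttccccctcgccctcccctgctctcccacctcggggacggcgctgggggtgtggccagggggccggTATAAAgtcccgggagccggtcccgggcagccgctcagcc

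The Igfbp2 window held 4 hypoxia-core matches between 153 and 126 bases before the start, of which the 2 ACGTG matches overlap on opposite strands in a palindrome. The Igfbp3 window held 2 GCGTG matches and no TATAAA, and the Igfbp4 window held TATAAA 40 bases before the start and no hypoxia core. Neither TCF/LEF word was found in the window of any of the 8 members. Over all 33469 RefSeq windows of that length, ACGTG was present in 16.6%, GCGTG in 25.9%, TATAAA in 12.9%, CTTTGAT in 3.15% and CTTTGTT in 5.14%. The GC content was 64.0% for Igfbp2, 71.6% for Igfbp3 and 68.8% for Igfbp4, against a median of 51.2% over all windows, and the windows held 11, 31 and 21 CpG dinucleotides against a median of 5. A match is a description of the letters and not evidence of binding. In the RefSeq order of genes Igfbp2 was next to Igfbp5 on chromosome 9, and Igfbp1 was next to Igfbp3 on chromosome 14.

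Igfbp2, which encodes an RGD-bearing binding protein abundant in fetal tissues, had the widest range of levels among the 5 members with enough counts for the fit. Its 3 normal libraries stood at 2.69, 4.41 and 1.81 CPM. The unsorted CHIR99021-vacuolated libraries stood at 16.9, 16.4 and 14.2 CPM and the sorted ones at 15.9, 13.2 and 13.8 CPM. Both CHIR99021-vacuolated groups lay above every normal library and overlapped each other. The serum vesicles reached 119, 176 and 88.2 CPM and the serum-free vesicles 254, 179 and 137 CPM. Every vesicle library was thus above every non-vesicle library, and the vesicle groups overlapped each other. The BCS-vacuolated libraries stood at 0.508, 10.0 and 1.68 CPM, from 3, 91 and 13 counts, so that the group mean of 4.07 ± 5.18 CPM (SD, n = 3) rested on replicate 2. The lowest of the 12 libraries grown with CHIR99021 was at 13.2 CPM and the highest of the 6 without it at 10.0 CPM. These groups differ in more than the inhibitor. For such splits over several groups, here and below, the share of all genes was not counted.

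Against normal cells (mean 2.97 ± 1.32 CPM, SD, n = 3) the fitted Igfbp2 level was 44.0-fold higher in serum vesicles (log2 5.46 ± 0.63, SE) and 65.1-fold higher in serum-free vesicles (log2 6.03 ± 0.63). It was 5.44-fold higher in unsorted (log2 2.44 ± 0.68) and 4.90-fold higher in sorted CHIR99021-vacuolated cells (log2 2.29 ± 0.67). For BCS-vacuolated cells the log2 fold change was 0.62 ± 0.78, and it was -1.30 without BCS replicate 2. The vesicle groups differed from each other by log2 0.57 ± 0.44, higher in the serum-free ones, and sorted from unsorted vacuolated cells by log2 -0.15 ± 0.51. Both of these differences lay within the overlap of the libraries.

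Igfbp3, the main carrier of IGFs in the circulation and a gene often induced by growth arrest and TGF-beta, had its highest level in normal cells. The normal libraries stood at 8.60, 9.01 and 10.4 CPM. Those of BCS-vacuolated cells were intermediate at 5.76, 3.52 and 5.95 CPM. The unsorted CHIR99021-vacuolated libraries stood at 2.10, 3.79 and 1.91 CPM. No library of these groups reached the normal range. The sorted libraries stood at 1.96, 2.34 and 2.52 CPM. The serum vesicles stood at 1.52, 0.695 and 3.68 CPM and the serum-free vesicles at 1.5, 1.33 and 0.582 CPM. Every one of the 15 libraries outside the normal group was below every normal one, and the 4 groups grown with CHIR99021 overlapped one another along their order of means.

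The fitted Igfbp3 level was 8.39-fold lower in serum-free vesicles than in normal cells (log2 -3.07 ± 0.44, SE) and 5.14-fold lower in serum vesicles (log2 -2.36 ± 0.42). It was 4.07-fold lower in sorted (log2 -2.03 ± 0.38) and 3.64-fold lower in unsorted CHIR99021-vacuolated cells (log2 -1.86 ± 0.40). The difference was smallest for BCS-vacuolated cells, at 1.86-fold (log2 -0.89 ± 0.37). There Igfbp3 did not pass the threshold, which 20.7% of all genes did. With those 2 groups fitted alone it passed, beside 2404 genes. Igfbp3 had 452 counts over the 18 libraries, so counting error weighs more on it than on Igfbp2, with 7346, and Igfbp4, with 2062.

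Igfbp4, which encodes a binding protein known as an inhibitor of IGF action and as the main substrate of the protease PAPP-A, was high in all 3 kinds of vacuolated cells and low in serum vesicles. The normal libraries stood at 15.2, 8.62 and 9.22 CPM. The BCS-vacuolated libraries stood at 19.1, 19.1 and 20.7 CPM, and the unsorted CHIR99021-vacuolated ones at 17.8, 21.0 and 16.5 CPM. The sorted libraries were the highest, at 24.9, 22.9 and 28.0 CPM. All 9 vacuolated libraries lay above all normal ones, and all sorted libraries lay above all other vacuolated ones. The serum vesicles stood at 4.86, 3.48 and 3.22 CPM, below every normal library. The serum-free vesicles were spread from 3.95 through 7.88 to 14.1 CPM and overlapped both the normal cells and the serum vesicles.

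Against normal cells (mean 11 ± 3.66 CPM, SD, n = 3) the fitted Igfbp4 level was 2.29-fold higher in sorted (log2 1.20 ± 0.27, SE), 1.78-fold higher in BCS-vacuolated (log2 0.84 ± 0.28) and 1.67-fold higher in unsorted CHIR99021-vacuolated cells (log2 0.74 ± 0.28). It was 2.82-fold lower in serum vesicles (log2 -1.49 ± 0.33), and in serum-free vesicles the log2 fold change was -0.30 ± 0.29. Serum-free vesicles were 2.28-fold higher than serum vesicles (log2 1.19 ± 0.33). Igfbp4 passed the threshold there, as did 24.4% of all genes. It did not pass without serum-free replicate 3 or with those 2 groups fitted alone. Sorted were above unsorted vacuolated cells by log2 0.46 ± 0.26.

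**Figure D1:**
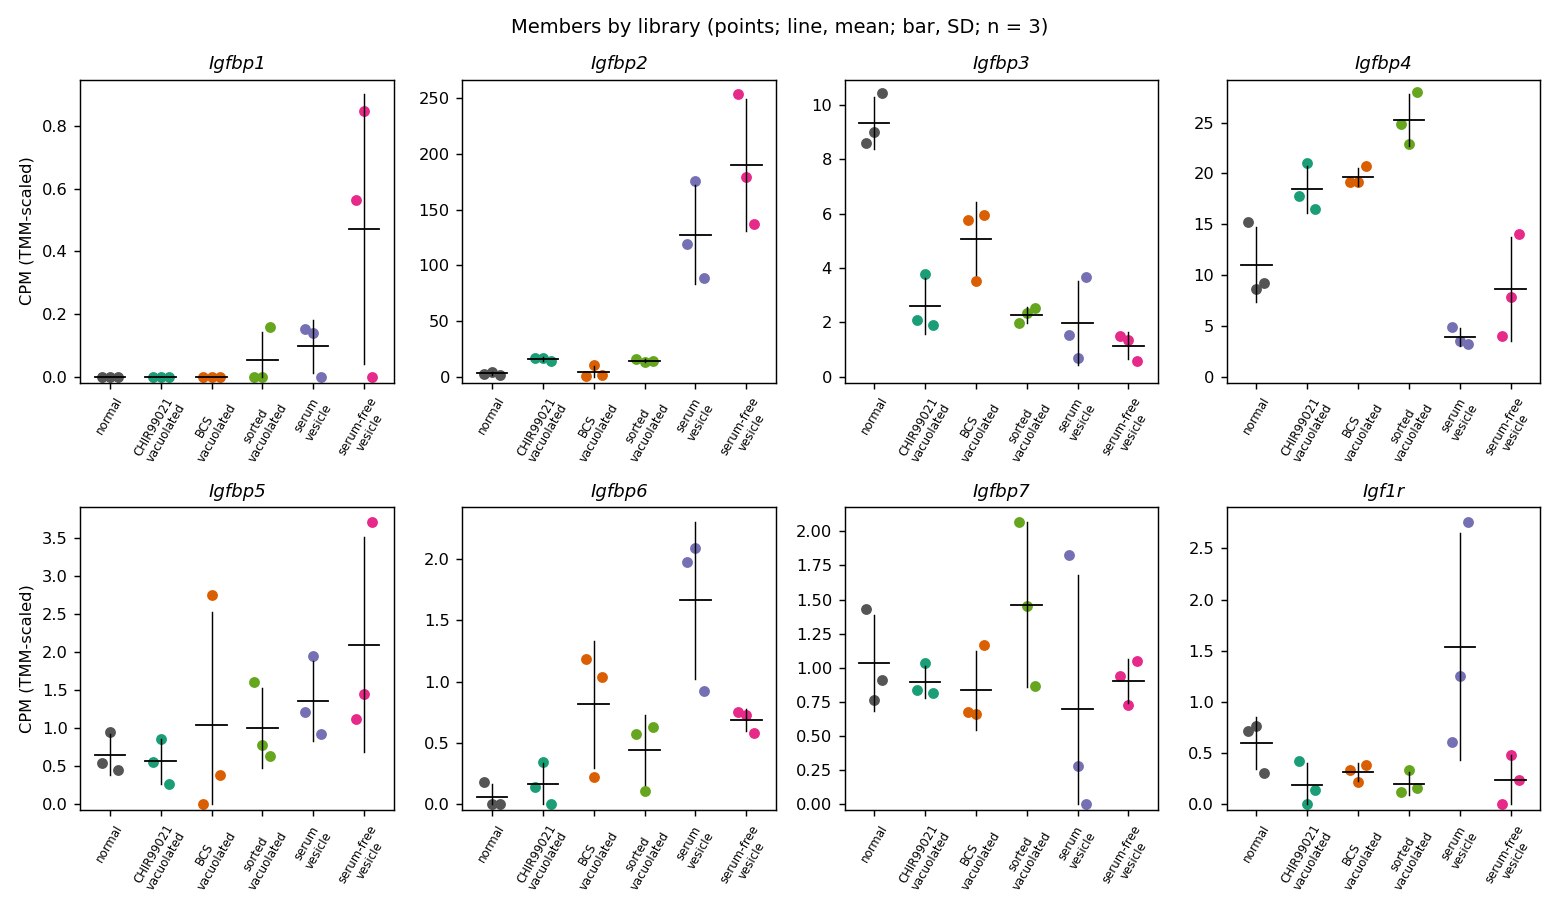
Level of each member in CPM (TMM-scaled, linear axes of different range) by group, with 1 point per library, a line at the mean and a bar for the SD (n = 3). Igfbp2 is highest in the vesicle libraries (88.2 to 254 CPM), Igfbp3 in the normal ones (8.60 to 10.4 CPM) and Igfbp4 in the sorted vacuolated ones (22.9 to 28.0 CPM), and the other members stay at or below 3.72 CPM.

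Igfbp5 and Igfbp7 entered the fit with few counts, 155 and 131 over the 18 libraries. Igfbp5, a matrix-binding family member, stood at 0.538, 0.958 and 0.454 CPM in normal cells and at 1.13, 1.46 and 3.72 CPM in serum-free vesicles, which lay above every normal library. Its fitted log2 fold change there was 1.74 ± 0.79 (SE), and 1.02 without serum-free replicate 3. In BCS-vacuolated cells its 3 libraries held 0, 25 and 3 counts, and the log2 fold change of 0.82 ± 0.84 became -1.49 without replicate 2. The same library thus held most of the group's counts of both neighbours on chromosome 9, Igfbp2 and Igfbp5. Igfbp7 had group means of 0.701 to 1.46 CPM, and all of its groups overlapped along their order of means. Its log2 fold changes against normal cells lay between -0.45 and 0.46, and the lowest, for serum vesicles, became -2.50 without serum replicate 1.

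The remaining 3 members had too few counts to enter the fit and are given by their counts over the 3 libraries of a group, with ratios per effective library size and exact 95% intervals that cover counting error only. Igfbp1, known as an acutely regulated target of insulin and FOXO factors in the liver, had 14 counts in all and 0 in 13 of 18 libraries. Those counts lay in serum-free vesicles (3, 7 and 0), in sorted cells (2) and in serum vesicles (2). With the normal group, at 0 counts, set to a floor of 3 counts over its libraries, the serum-free level was 2.62-fold that of normal cells. This value follows from the chosen floor and is not a confidence limit. Igfbp6, a binding protein with a preference for IGF-II, had 1 count in normal and 3 in unsorted CHIR99021-vacuolated cells, but 17 in BCS-vacuolated, 14 in sorted, 32 in serum vesicle and 15 in serum-free vesicle libraries. Its ratio to normal cells was 30.8 (interval 5.14 to 1252) in serum vesicles and 13.0 (2.04 to 544) in BCS-vacuolated cells, and serum-free were 0.383 of serum vesicles (0.193 to 0.729).

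Igf1r, the signalling receptor for both ligands, was near the limit of detection in every group. It had 58 counts over the 18 libraries, 10 in normal cells (4, 4 and 2) and 25 in serum vesicles (4, 9 and 12). The ratio of serum vesicles to normal cells was 2.40 (interval 1.11 to 5.61), and that of serum-free to serum vesicles was 0.196 (0.0658 to 0.490). In the other 4 groups it had 4 to 7 counts, and the intervals of their ratios to normal cells included 1. The libraries of every group overlapped those of the next group in the order of means.

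The 5 members that passed the low-count filter are set here beside all 11503 genes in the fit. Since the members were chosen with these values in view, nothing is read from their counts. All comparisons with normal cells share the same 3 normal libraries. In unsorted CHIR99021-vacuolated cells Igfbp2 (higher) and Igfbp3 (lower) passed edgeR's adjusted p threshold of 0.05, where 7.62% of all genes did (4.49% higher and 3.13% lower). In that comparison 3 of 5 members did not overlap between the groups, where 31.8% of all genes did not (15.8% higher and 16% lower). Igfbp2 no longer passed there when any 1 of the 6 libraries was left out. In BCS-vacuolated cells Igfbp4 passed, beside 20.7% of all genes (11.2% higher and 9.51% lower), and 2 members did not overlap, beside 38.2% (18.5% higher and 19.7% lower). The call on Igfbp4 ended without normal replicate 2 or 3 or without any BCS library. In sorted cells Igfbp2, Igfbp3 and Igfbp4 passed, beside 25.9% of all genes (14.4% higher and 11.5% lower), and did not overlap, beside 45% (23.2% higher and 21.8% lower). The call on Igfbp2 ended without normal replicate 1 or 3 or sorted replicate 1 or 2.

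In serum vesicles Igfbp2 (higher), Igfbp3 and Igfbp4 (both lower) passed, beside 60.4% of all genes (31.7% higher and 28.8% lower), and the same 3 did not overlap with normal cells, beside 63.7% (33.1% higher and 30.6% lower). In serum-free vesicles Igfbp2 and Igfbp3 passed, beside 57.7% (30.2% higher and 27.5% lower), and those and Igfbp5 did not overlap, beside 62.5% (32.3% higher and 30.1% lower). In neither vesicle comparison did leaving out a library end the calls on Igfbp2 and Igfbp3. Between the vesicle groups Igfbp4 was the member that passed, where 24.4% of all genes did (12.9% higher and 11.5% lower), and all 5 members overlapped, where 32.6% of genes did not (18% higher and 14.6% lower). Between sorted and unsorted vacuolated cells 0 of 5 members passed in edgeR, where 11.7% of all genes did (6.69% higher and 5.05% lower). None passed in DESeq2 or at an unadjusted p under 0.05. With those 2 groups fitted alone Igfbp4 passed, beside 2576 genes. Igfbp4 was the member that did not overlap, where 36.9% of genes did not (18.9% higher and 18% lower). The median log2 fold change of the 5 members lay between -0.45 (serum vesicles) and 0.62 (BCS-vacuolated cells), and that of all genes between 0 and 0.06 over the same comparisons.

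**Figure D2:**
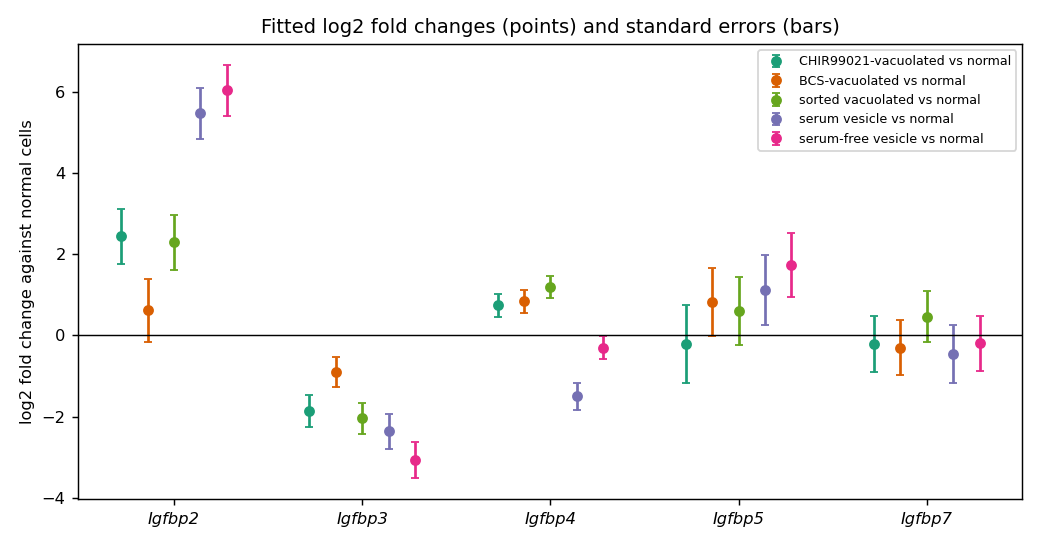
Fitted log2 fold change against normal cells (points) with its standard error (bars) for the 5 members in the fit, by comparison. Igfbp2 has its largest values in the vesicles (5.46 and 6.03), and its BCS value of 0.62 becomes -1.30 without BCS replicate 2. Igfbp3 lies below 0 in all 5 comparisons, and Igfbp4 is above 0 in the vacuolated and below 0 in the vesicle comparisons.

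For the 2 members whose mean log2 CPM reached 3, the genes of most similar profile over the 18 libraries were listed. For Igfbp2 these were Plekhg1 (Pearson r 0.961), Mmp15 (0.961), a membrane-type matrix metalloproteinase, and Slc12a2 (0.955), a sodium-potassium-chloride cotransporter. Over the 12 libraries that were not vesicles the same genes had r of 0.885, 0.866 and 0.816. Mmp15 had a mean of 0.458 CPM in normal cells, 6.99 CPM in unsorted and 8.19 CPM in sorted CHIR99021-vacuolated cells, and 71.1 and 77.2 CPM in serum and serum-free vesicles. For Igfbp4 they were Slc34a2 (0.918), a sodium-phosphate cotransporter, Cand1 (0.906), a regulator of cullin ligases, and Dazap1 (0.901), an RNA-binding protein, with 0.727, 0.886 and 0.736 outside the vesicles. These genes were picked as the highest of all tested genes, and libraries of a group share their condition, so the values describe likeness only.

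The other genes of the pathway were followed on a list of 59, of which 58 were in the files and 45 were tested. With edgeR's quasi-likelihood test and Benjamini-Hochberg adjustment over all 11503 genes, 5 rose and 1 fell in unsorted CHIR99021-vacuolated cells, 13 rose and 1 fell in BCS-vacuolated cells, and 15 rose and 5 fell in sorted cells. These are 13.3%, 31.1% and 44.4% of the list, beside 7.62%, 20.7% and 25.9% of all genes. In serum vesicles 17 rose and 12 fell (64.4% beside 60.4%), and in serum-free vesicles 14 rose and 12 fell (57.8% beside 57.7%). Between serum-free and serum vesicles 6 were higher and 9 lower (33.3% beside 24.4%), and between sorted and unsorted cells 5 were higher and 1 lower (13.3% beside 11.7%).

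The ligand Igf1 was higher in the 4 groups grown with CHIR99021 than in normal cells, and these groups differ in more than the inhibitor. Its normal libraries stood at 6.81, 3.26 and 6.5 CPM, the unsorted CHIR99021-vacuolated ones at 27.6, 23.3 and 28.1 CPM and the sorted ones at 47.8, 39.9 and 37.6 CPM. The serum vesicles stood at 22.3, 17.1 and 12 CPM and the serum-free ones at 63.9, 92.3 and 71.5 CPM. All 4 groups lay above every normal library. The rise was 4.71-fold in unsorted (edgeR adjusted p = 0.00138), 7.44-fold in sorted (3.45e-05), 3.10-fold in serum vesicle (0.00182) and 13.6-fold in serum-free vesicle libraries (2.36e-07), and serum-free exceeded serum vesicles 4.38-fold (2.61e-04). The difference between sorted and unsorted cells, log2 0.66 ± 0.31, did not pass (edgeR adjusted p = 0.194), but passed without the low-count filter (0.00373) and with those 2 groups fitted alone (0.00122). The BCS-vacuolated libraries stood at 1.52, 8.25 and 2.59 CPM, with a log2 fold change of -0.35 ± 0.44 (edgeR adjusted p = 0.628) and, without BCS replicate 2, a fall of 1.40 on the log2 scale that passed (edgeR adjusted p = 0.00936).

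Igf2, the fetal ligand, was close to undetected outside the vesicles and abundant in them. The normal libraries stood at 0.538, 1.15 and 0.605 CPM, and the serum and serum-free vesicle means were 190 and 227 CPM, with single vesicle libraries from 87.0 to 379 CPM. The rise was 250-fold in serum vesicles (log2 7.96 ± 0.77, edgeR adjusted p = 1.17e-06) and 297-fold in serum-free vesicles (log2 8.21 ± 0.76, edgeR adjusted p = 9.94e-07), from 3, 6 and 4 counts in the normal libraries. In the vacuolated groups its means were 1.32, 0.283 and 2.54 CPM for unsorted, BCS and sorted cells, none of which passed. The difference in sorted cells (log2 1.66 ± 1.15, edgeR adjusted p = 0.323) passed without the low-count filter (3.07e-04), with those 2 groups fitted alone (0.0181) and with the replicate block (0.0162). The insulin genes Ins1 and Ins2 had 0 counts in every group.

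**Figure D3:**
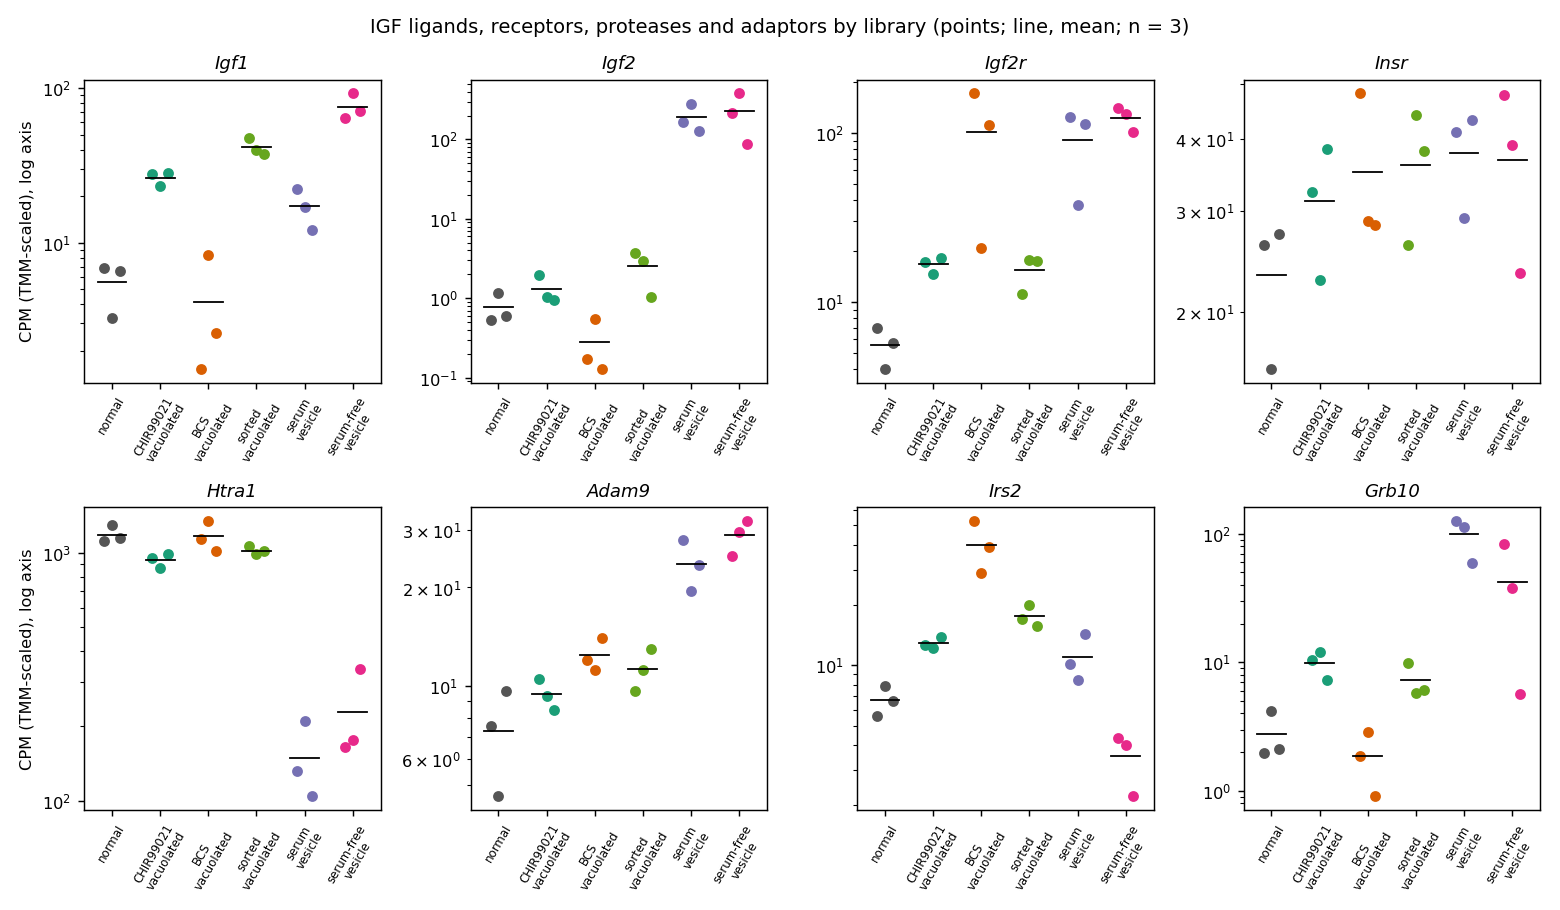
Level in CPM (TMM-scaled, log axes) of 8 genes of the IGF pathway by group, with 1 point per library and a line at the mean (n = 3). Igf2 is highest in the vesicle libraries, Grb10 has its highest means there with serum-free replicate 3 at 5.70 CPM, Igf1 is above normal in all 4 groups grown with CHIR99021, and Htra1 falls from 1183 CPM in normal cells to 148 and 227 CPM in vesicles.

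Among the other receptors, Igf2r, the receptor that takes up IGF-II for lysosomal degradation and does not pass on the growth signal, rose in BCS-vacuolated cells and vesicles. Its normal libraries stood at 6.99, 4.02 and 5.75 CPM, the BCS-vacuolated ones at 171, 20.8 and 111 CPM, the serum vesicles at 124, 37.3 and 112 CPM and the serum-free ones at 140, 129 and 101 CPM. The rise was 17.8-fold with BCS (edgeR adjusted p = 0.00178), 16.1-fold in serum vesicles (4.01e-04) and 21.9-fold in serum-free vesicles (1.89e-04). In unsorted and sorted CHIR99021-vacuolated cells all libraries were above the normal ones, at means of 16.7 and 15.4 CPM, without passing (edgeR adjusted p = 0.276 and 0.184). Both passed without the low-count filter (5.63e-12 and 2.84e-11) and with each pair of groups fitted alone (1.99e-06 and 3.79e-05). The insulin receptor Insr had a mean of 23.1 CPM in normal cells and 31.2 to 37.9 CPM elsewhere, and none of its comparisons passed, the nearest being serum vesicles (log2 0.70 ± 0.30, edgeR adjusted p = 0.0553). Without the low-count filter Insr passed with BCS (edgeR adjusted p = 0.0118) and in sorted cells (0.00255), serum vesicles (8.17e-04) and serum-free vesicles (0.00104). It also passed in serum vesicles with DESeq2 (adjusted p = 0.0335), in sorted cells (0.0293) and serum vesicles (0.0177) with those groups fitted alone, in serum vesicles without serum replicate 2 (0.0363) and in serum-free vesicles without serum-free replicate 3 (0.0134). The BCS call on Igf2r ended when those 2 groups were fitted alone (edgeR adjusted p = 0.0554).

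The enzymes that act on the binding proteins moved apart in the vesicles. Htra1, a secreted serine protease with IGFBPs among its substrates, had means of 1183 CPM in normal cells and 936 to 1164 CPM in the vacuolated groups, none of which passed. It fell 7.94-fold in serum vesicles (edgeR adjusted p = 2.19e-08) and 5.20-fold in serum-free vesicles (3.32e-07), where single libraries stood between 104 and 341 CPM. Adam9, a membrane metalloproteinase reported to cut IGFBP5, rose 3.20-fold in serum (edgeR adjusted p = 5.15e-07) and 3.92-fold in serum-free vesicles (3.87e-08), and 1.68-fold with BCS (0.0201) and 1.54-fold in sorted cells (0.0425). The other 6 genes of this sublist had too few counts to be tested. Among them Pappa1, the symbol in these files for the gene of PAPP-A, had 3 counts in normal cells and 16 in serum vesicles (ratio 5.13, interval 1.47 to 27.4), and Stc1, which encodes an inhibitor of PAPP-A, had 1 and 24 (ratio 23.1, interval 3.76 to 948). For Stc1 the ratio to normal cells was also 7.73 (1.07 to 339) in unsorted and 12.6 (2.04 to 521) in sorted CHIR99021-vacuolated cells. It was 14.6 (2.31 to 605) with BCS and 17.3 (2.79 to 713) in serum-free vesicles. For Pappa1 these ratios were, in the same order, 3.72 (1.02 to 20.4), 3.44 (1.01 to 18.3), 1.02 (0.173 to 6.97) and 3.14 (0.848 to 17.4).

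The IGF2 mRNA-binding proteins, which regulate the stability and translation of Igf2 and other transcripts, did not move together. Igf2bp2 rose in all 5 comparisons with normal cells, by 1.81-fold in unsorted CHIR99021-vacuolated (edgeR adjusted p = 0.0148), 3.04-fold in BCS-vacuolated (1.48e-05), 2.47-fold in sorted (1.06e-04), 3.31-fold in serum vesicle (3.64e-07) and 2.51-fold in serum-free vesicle libraries (1.60e-05). The unsorted CHIR99021 call ended without normal replicate 2 or 3 or CHIR99021 replicate 3. Igf2bp1 had a mean of 196 CPM in normal cells and fell 2.20-fold in serum (edgeR adjusted p = 2.71e-07) and 2.69-fold in serum-free vesicles (9.28e-09), with no call in vacuolated cells. Igf2bp3 fell 1.71-fold in serum vesicles (edgeR adjusted p = 0.00105) and was 1.65-fold higher in serum-free than in serum vesicles (0.00673), a difference that did not pass when those groups were fitted alone (edgeR adjusted p = 0.0740).

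Of 8 tested adaptors, which carry the signal from the receptor, Gab1 rose in all 5 comparisons with normal cells, from 1.87-fold in unsorted CHIR99021-vacuolated cells (edgeR adjusted p = 1.42e-04) to 4.11-fold in serum-free vesicles (1.27e-11). Irs2, a main substrate of the insulin and IGF receptors, stood at 5.56, 7.86 and 6.65 CPM in normal cells and at 52.5, 28.9 and 38.8 CPM in BCS-vacuolated cells, a 5.96-fold rise (edgeR adjusted p = 7.57e-08). It rose 1.93-fold in unsorted (0.0189) and 2.63-fold in sorted CHIR99021-vacuolated cells (1.83e-04) and 1.61-fold in serum vesicles (edgeR adjusted p = 0.0253). In serum-free vesicles it stood at 4.33, 4.0 and 2.21 CPM, below every normal library, a 1.94-fold fall (edgeR adjusted p = 0.00685). Serum-free were 3.13-fold below serum vesicles for Irs2 (edgeR adjusted p = 1.60e-04) and 1.63-fold below for Sos1 (0.00282), a Ras exchange factor.

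Shc1, an adaptor of the Ras branch, fell in 4 of the 5 comparisons with normal cells, by 1.39-fold in unsorted CHIR99021-vacuolated (edgeR adjusted p = 0.0132), 1.41-fold in sorted (0.00322), 1.97-fold in serum vesicle (2.18e-07) and 1.46-fold in serum-free vesicle libraries (4.48e-04). The unsorted call ended without normal replicate 1 or 2 or CHIR99021 replicate 1 or 2. Grb10, an adaptor that dampens insulin and IGF receptor signalling and was singled out after its values were seen, had a mean of 2.77 CPM in normal cells. It stood at 125, 113 and 59.2 CPM in serum vesicles, a 36.4-fold rise (edgeR adjusted p = 1.49e-04), and at 83.3, 37.7 and 5.70 CPM in serum-free vesicles, a 15.1-fold rise (0.00152). Each vesicle library was above every normal one. In unsorted and sorted CHIR99021-vacuolated cells all libraries were above the normal ones too, at means of 9.89 and 7.26 CPM, without passing (edgeR adjusted p = 0.289 and 0.304). Serum-free vesicle replicate 3 lay below all libraries of those groups. Grb2, which couples receptors to Sos proteins, was 1.70-fold higher in sorted than in unsorted vacuolated cells (edgeR adjusted p = 3.36e-04).

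All 19 genes of the PI3K, AKT and mTOR branch were tested. In unsorted CHIR99021-vacuolated cells 0 passed in edgeR, as in DESeq2, and 1 had an unadjusted p under 0.05. With BCS 5 rose, in sorted cells 6 rose and 1 fell, in serum vesicles 6 rose and 5 fell, and in serum-free vesicles 5 rose and 5 fell. Over all genes the share that passed was 20.7% with BCS, 25.9% in sorted cells, 60.4% in serum vesicles and 57.7% in serum-free vesicles. It was 7.62% in unsorted CHIR99021-vacuolated cells. Rheb, the small GTPase that activates mTOR complex 1, rose 2.87-fold in sorted cells (edgeR adjusted p = 1.12e-07), 2.71-fold in serum (1.84e-08) and 2.75-fold in serum-free vesicles (1.54e-08), and was 2.57-fold higher in sorted than in unsorted cells (1.26e-06). Gsk3b, which encodes a target of CHIR99021, rose 3.03-fold in serum vesicles (edgeR adjusted p = 1.81e-08), 1.82-fold in serum-free vesicles (1.28e-04), 1.77-fold in sorted cells (8.97e-04) and 1.41-fold with BCS (0.0430), and was 1.66-fold lower in serum-free than in serum vesicles (0.00216). Gsk3a, the other GSK3 gene on the list, went the other way. It fell 1.32-fold in sorted cells (edgeR adjusted p = 0.0375) and also fell past the threshold in both kinds of vesicles. Rps6kb1, the S6 kinase downstream of mTOR, was 1.53-fold higher in serum-free than in serum vesicles (edgeR adjusted p = 0.00214).

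Among FOXO factors, which AKT keeps out of the nucleus, Foxo1 was 1.78-fold higher in serum-free than in serum vesicles (edgeR adjusted p = 0.00291), Foxo4 fell 1.86-fold in sorted cells (0.00185) and Foxo3 was 1.87-fold higher in sorted than in unsorted cells (0.00106). Against normal cells Foxo3 also rose past the threshold with BCS, in sorted cells and in both kinds of vesicles. Of the 6 negative regulators, Socs1, which encodes a feedback inhibitor of cytokine signalling, rose 4.68-fold in unsorted CHIR99021-vacuolated cells (edgeR adjusted p = 0.0106) from a mean of 0.765 CPM, a call that ended without normal replicate 3. Socs1 also rose 3.74-fold in sorted cells (edgeR adjusted p = 0.0120). Socs3, of the same family, fell 1.59-fold with BCS (edgeR adjusted p = 0.0142) and 2.04-fold in sorted cells (3.30e-04). It also fell past the threshold in both kinds of vesicles. The BCS call ended without normal replicate 2 or BCS replicate 1, and the fall of Socs3 from unsorted to sorted cells (1.55-fold, edgeR adjusted p = 0.0320) ended when any 1 of the 6 libraries was left out. Ptpn1, the phosphatase that acts on the insulin receptor, fell 2.55-fold in serum-free vesicles (edgeR adjusted p = 3.44e-08) and 1.37-fold in sorted cells (0.0179). Its fall in serum vesicles passed the threshold too.

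**Figure D4:**
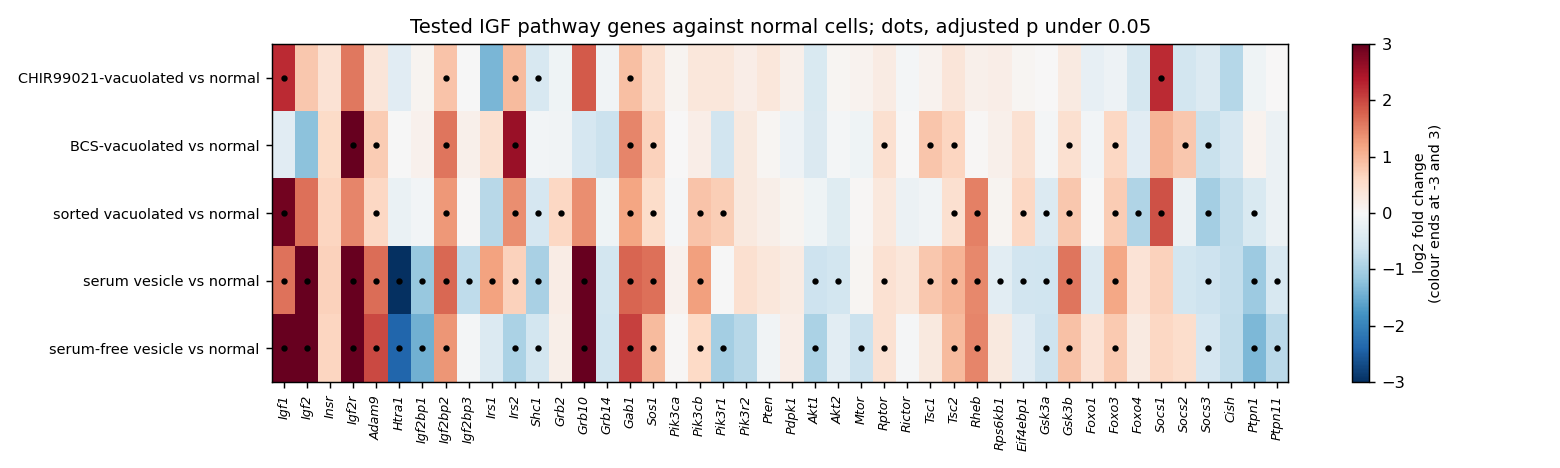
Log2 fold change against normal cells (colour, ending at -3 and 3) of 44 tested genes of the pathway list in 5 comparisons, with a dot where the edgeR adjusted p was under 0.05. Gab1 and Igf2bp2 are higher with a dot in every row, and 29 of 44 genes carry a dot in serum vesicles against 6 in unsorted CHIR99021-vacuolated cells. Over all genes 60.4% and 7.62% passed in these comparisons.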

How the data were processed

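Libraries were made with a directional kit from total RNA depleted of ribosomal RNA and read in pairs, per the labels' protocols. The authors used bcl2fastq, Trimmomatic 0.38, STAR 2.6.1 and the rn6 build, per the submitters' processing notes, and the counter is not given in the sources used here. The deposited files hold whole-number counts per gene symbol, unstranded and for each strand. The strand with nearly all counts was used, and the other held 1.70 to 2.85%. No coordinates are in the files.

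In R 4.3.3, edgeR 4.0.16 filtered genes (filterByExpr, minimum count 10, which left 11503 of 28695), scaled libraries by TMM and fitted 1 mean per group to all 18 libraries by robust quasi-likelihood (12 residual degrees of freedom, common biological coefficient of variation 16.1%). The 7 comparisons were adjusted by Benjamini-Hochberg over all genes, with a threshold of 0.05. CPM are counts per M counts of the TMM-scaled library, without a length correction, so levels of different genes are not compared. Profile likeness used log2 CPM (prior count 2). Ratios of genes under the filter carry exact 95% intervals or a floor of 3 counts per group, for counting error only.

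The members and lists were chosen with earlier results of these data known. Named were all members, Igf1, Igf2, Insr, Igf2r, Pappa (Pappa1 in the files, matched by a RefSeq synonym) and Igf2bp1 to Igf2bp3. To these were added the 3 higher and 3 lower list genes of smallest adjusted p per comparison, and the 3 genes of highest r for each member whose mean log2 CPM reached 3. Other list genes are examples beside their counts. Irs4 and member proteins were not analysed here. The values of 1 further list gene are not reported here, though it stays in the list's counts. Blood and immune markers summed to at most 5.82 CPM. The code was tested on simulated data. Alternatives were DESeq2 1.42.0 and its size factors, no filter, unstranded counts, passage as a covariate, a replicate block, the 2 groups fitted alone and each library left out.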

Additional observations from a re-analysis of the deposited data

Results flagged for a closer look

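The counts on the strand opposite to the one analysed were looked at for the members and the pathway list. A gene was picked out where every library of a group lay above every normal library, with more than 3 counts in the group and with a share of its counts on that strand above the share over the whole library. Igf2r, with 32 such counts in the normal libraries, had 94 in unsorted CHIR99021-vacuolated cells, 138 in sorted cells, 123 in serum vesicles and 91 in serum-free vesicles. In the same groups its counts on the analysed strand were 342, 477, 1573 and 2676, beside 98 in normal cells. BCS-vacuolated cells, where Igf2r reached 2058 counts on the analysed strand, had 78 on the opposite one. Since the groups differ in depth, these counts were also scaled. Single libraries then stood at 1.61 to 2.12 CPM in normal cells and 3.1 to 6.58 CPM in unsorted CHIR99021-vacuolated cells. They stood at 4.14 to 5.36 CPM in sorted cells, 5.42 to 8.52 CPM in serum and 3.76 to 4.33 CPM in serum-free vesicles. The opposite strand held 18.8 to 30.0% of Igf2r counts in normal libraries and 2.84 to 12.7% in vesicle libraries.

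Igfbp7 had 0 opposite-strand counts in normal cells, 9 in sorted cells and 8 in serum-free vesicles, beside 42 and 20 on the analysed strand. In serum vesicles it had 9, all in replicate 2, where the analysed strand held 2. Cish, a SOCS family gene, had 0 in normal cells and 5 in serum-free vesicles, and 5 in serum vesicles, all in replicate 3. These are small counts without a test.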

How the results depend on the processing

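Of 435 member log2 fold changes recomputed under an alternative, 428 stayed within 1 SD of the replicates, 7 moved further and 0 turned the sign of a called value. Leaving out 1 library of a group of 3 can hardly move its mean by that SD, so these counts do not measure stability. The 7 that moved further all came from leaving out a library, on Igfbp2, Igfbp5 or Igfbp7. With passage as a covariate the same members passed in each comparison, beside 858 genes in unsorted CHIR99021-vacuolated cells and up to 6864 in serum vesicles. Without the low-count filter 3 members passed in unsorted CHIR99021-vacuolated cells, 2 with BCS and 2 between vesicle groups. They stood beside 1070, 2335 and 3012 genes. In serum and serum-free vesicles 4 members each passed without the filter, beside 7099 and 6873 genes. DESeq2 gave 2 members with BCS, 4 in serum and 3 in serum-free vesicles, beside 2475, 7044 and 6705 genes. Both settings took in genes that the filter had removed, so these numbers of genes are not out of 11503. Igfbp6, which the filter removed, passed under both settings with BCS and in both kinds of vesicles. With the 2 groups fitted alone, genes, members and pathway genes past the threshold numbered 1856, 3 and 13 for unsorted CHIR99021-vacuolated against normal cells (876, 2 and 6 with all libraries), 2576, 1 and 11 for sorted against unsorted cells (1350, 0 and 6), and 1223, 0 and 9 for serum-free against serum vesicles (2805, 1 and 15). With BCS the members that passed in this fit were Igfbp3 and Igfbp4, beside 2404 genes (Igfbp4 and 2383 with all libraries). Calls gained on Igf1, Igf2, Igf2r and Insr are given beside their values. In addition Igf2r passed between vesicle groups without the filter (log2 0.48), Igf2bp2 between sorted and unsorted cells with those groups alone (log2 0.44), and Igf2bp1 between vesicle groups without serum-free replicate 1 (log2 -0.44). The cause of these changes was not tested.

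Leaving out 1 library gave 504 to 638 genes, 1 to 2 members and 3 to 6 pathway genes in unsorted CHIR99021-vacuolated cells, 1276 to 2606, 0 to 2 and 6 to 16 with BCS, and 1981 to 2471 genes and 13 to 17 pathway genes in sorted cells. In serum-free vesicles it gave 2 to 4 members beside 6075 to 6387 genes. Between sorted and unsorted cells it gave 690 to 954 genes and 3 to 5 pathway genes. Between vesicle groups it gave 1726 to 3004 genes and 0 to 1 members. Among uncalled members, the log2 difference of Igfbp7 in unsorted CHIR99021-vacuolated cells went from -0.21 to 0.08 without normal replicate 1. Between vesicle groups Igfbp5 went to -0.09 without serum-free replicate 3, and Igfbp7 to 2.31 without serum replicate 1. Small uncalled log2 differences of pathway genes that changed sign are given by their ranges. For Igf2bp1 they were -0.02 to 0.17 in unsorted and -0.18 to 0.01 in sorted CHIR99021-vacuolated cells. For Igf2bp3 they were -0.12 to 0.13 in unsorted cells, -0.07 to 0.18 in sorted cells, -0.18 to 0.14 in serum-free vesicles and -0.01 to 0.14 between sorted and unsorted cells. For Igf2 and Insr they were -0.34 to 0.65 and -0.26 to 0.20 between vesicle groups, and for Igf2r -0.22 to 0.07 between sorted and unsorted cells.

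No label says that libraries of the same replicate number share a culture, and their deviations from the group means correlated at -0.149 to 0.087, so the numbers were not taken to pair them. The replicate block gave 831 genes past the threshold for unsorted CHIR99021-vacuolated, 2282 for BCS-vacuolated, 2861 for sorted, 6889 for serum vesicle and 6555 for serum-free vesicle against normal cells, 2568 between vesicle groups and 1231 between sorted and unsorted cells, and the same members passed. It moved 1 named value across the threshold, Igf2 in sorted cells (log2 1.67). Igfbp1, Igfbp6 and Igf1r, with 14 to 82 counts in all, are limited by depth.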
